A study of Mus musculus with 2 samples.

Results

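The dystrophin-glycoprotein complex was examined through 8 genes, Dmd, Dag1, Sgca, Sgcb, Sgcd, Sgce, Sspn and Utrn, taken by gene symbol from the 21829 genes of the C2C12 expression values. All 8 symbols were found. C2C12 is an immortalized mouse myoblast line, kept here in serum-containing growth medium, and the Gne KO line was made from it with Cas9 and a guide to Gne, after which single clones were isolated and expanded. The measurement was RNA-seq of 2 libraries, 1 from WT and 1 from KO cells. The methods give the growth medium of C2C12 cells but not the culture behind each library. The age or passage of the cultures is not given in the sources used here. With 1 library per line there is no replicate error, no difference below carries a test, and a difference of a cell clone from its parent line cannot be told apart from a difference due to Gne.

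The complex links the actin cytoskeleton inside a muscle cell to the basement membrane outside it. Dystrophin (Dmd) or its paralog utrophin (Utrn) binds actin and the tail of β-dystroglycan, α-dystroglycan binds laminin through a long sugar chain, and the sarcoglycans with sarcospan (Sspn) stabilize the assembly in the membrane. Mature skeletal muscle fibres use dystrophin and a muscle set of sarcoglycans that includes the α, β and δ subunits, whereas utrophin and ε-sarcoglycan (Sgce, the paralog of Sgca) are widely expressed in other cells and in immature muscle. Loss of dystrophin or of a sarcoglycan of the muscle set causes muscular dystrophies.

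The deposited values name no unit and are read here as FPKM, a level scaled to transcript length and to sequencing depth. A TPM table restricted to these genes would look alike and would change each ratio between the libraries only by a common factor. The columns summed to 568543 in the WT library and to 574253 in the KO-labelled library. Gne itself was 6.67 FPKM in WT and 7.34 FPKM in the KO-labelled library, so its RNA level does not check the labels. Differences are log2((KO + 1)/(WT + 1)), which makes changes of low genes look smaller than they are, and were read for the 10542 genes whose mean reached 1 FPKM. A gene was called past 2-fold when this log2 fold change lay beyond 1 in either direction. Products of value and transcript length clustered, at the low end, around a smallest step of 0.0358 FPKM × kb in the WT library and 0.0406 in the KO-labelled library. Read as the value of 1 fragment, this step gave a rough number of fragments behind each gene.

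Dystrophin RNA was nearly absent from both libraries while utrophin RNA was present, and the annotated starts of these 2 genes are therefore shown first. The sequences are the RefSeq windows on GRCm38.p6, 250 bases before to 50 after each start. Capitals mark matches to the E-box letters CANNTG, the general binding sequence of myogenic bHLH factors such as MyoD, which read alike on both strands. The last sequence, that of Sgca, is given because this striated-muscle sarcoglycan was the lowest member above the filter.

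Dmd, start of the long form, chrX:82948620-82948919, plus strand: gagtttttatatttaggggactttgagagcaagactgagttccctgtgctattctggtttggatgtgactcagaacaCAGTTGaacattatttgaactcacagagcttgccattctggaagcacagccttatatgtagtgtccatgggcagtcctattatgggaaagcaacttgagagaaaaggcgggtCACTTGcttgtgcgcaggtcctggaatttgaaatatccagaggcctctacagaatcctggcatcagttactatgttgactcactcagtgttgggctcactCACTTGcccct

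Dmd, start of the short forms, chrX:85048045-85048344, plus strand: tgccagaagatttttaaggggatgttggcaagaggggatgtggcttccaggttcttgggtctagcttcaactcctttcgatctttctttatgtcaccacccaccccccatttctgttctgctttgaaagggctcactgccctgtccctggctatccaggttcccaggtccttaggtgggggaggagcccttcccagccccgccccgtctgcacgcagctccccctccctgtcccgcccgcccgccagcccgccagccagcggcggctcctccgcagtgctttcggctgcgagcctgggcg

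Utrn, chr10:12861686-12861985, minus strand: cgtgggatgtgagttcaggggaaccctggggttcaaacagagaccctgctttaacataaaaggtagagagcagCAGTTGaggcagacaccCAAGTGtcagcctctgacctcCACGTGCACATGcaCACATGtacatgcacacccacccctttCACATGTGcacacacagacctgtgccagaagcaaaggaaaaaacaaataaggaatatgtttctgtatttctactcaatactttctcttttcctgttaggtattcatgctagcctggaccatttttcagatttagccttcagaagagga

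Sgca, chr11:94976278-94976577, minus strand: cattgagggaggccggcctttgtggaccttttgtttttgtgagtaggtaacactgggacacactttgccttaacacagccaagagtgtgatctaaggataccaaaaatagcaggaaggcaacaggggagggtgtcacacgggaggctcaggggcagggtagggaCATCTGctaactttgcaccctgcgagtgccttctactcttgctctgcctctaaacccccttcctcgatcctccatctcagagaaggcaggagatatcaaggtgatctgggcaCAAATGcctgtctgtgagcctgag

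Each window matched GRCm39 at a single place. The first Dmd window, at chrX:81992226-81992525 of GRCm39, covers the start of Dmd-205 and of Dmd-203, the 14945-base transcript of full-length dystrophin in GENCODE vM39. The second, at chrX:84091651-84091950, covers the start of Dmd-214, a coding transcript of 5272 bases, and lies just before those of Dmd-201 and Dmd-202. The Utrn window, at chr10:12737430-12737729, holds the start of Utrn-201, while the longest transcript, Utrn-205, begins further upstream and is not covered. The Sgca window, at chr11:94867104-94867403, holds the start of Sgca-202, a coding transcript of 1816 bases. Sgca-201, the canonical transcript used below, begins further downstream, and its start is not covered. The long-form Dmd window held 3 matches to CANNTG, the short-form window 0, the Utrn window 7, overlapping ones counted, and the Sgca window 2. Of all 32851 RefSeq windows of this length, 72.3% held at least 1 such match. The letters CAGCTG, a form of the E-box that MyoD favours, were in none of the 10 windows listed for 7 of the 8 genes. Of all windows 16.3% held them, and with so few windows, 0 is not read as a lack. The windows listed for Dag1 overlap, and Sgce has none. A match is a description of the letters and says nothing of binding in these cells.

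Dmd, which encodes dystrophin, had 0.007 FPKM in the WT library and was listed at 0 in the KO-labelled library. It lies on chromosome X of GRCm39 from 81992474 to 84249747, on the plus strand. With the smallest step read as 1 fragment, the WT value corresponds to about 3 fragments over Dmd-203 or 1 over Dmd-214. Genes listed at 0 made up 37.2% of the WT values and 37.7% of those of the KO-labelled library. Such a 0 can also be a failed estimate, for Dmd and for the other genes listed at 0 below. The deposited value is per gene, so that the full-length and short forms of dystrophin share it, and neither could be seen beyond a few fragments. No fold change is given for Dmd, which did not pass the filter.

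Utrn, the utrophin gene on chromosome 10 from 12257537 to 12745265, had 10.8 FPKM in WT and 12.2 FPKM in the KO-labelled library. The log2 fold change was 0.16, and 60.9% of all genes past the filter had a larger one in either direction. Utrn was thus the member of the dystrophin pair listed above 1 FPKM in both libraries, and its 2 levels were 1.13-fold apart.

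Dag1 encodes the precursor that is cleaved into α- and β-dystroglycan, the laminin receptor and its membrane anchor. It lies on the minus strand of chromosome 9 from 108081833 to 108152333. It was the highest of the 8 genes per length in both libraries, at 46.4 FPKM in WT and 64.9 FPKM in the KO-labelled library (log2 fold change 0.48). Among all genes its level stood at percentile 90.8 in the WT library and 93.6 in the KO-labelled library. Dag1 was 4.29 times as high as Utrn in the WT library and 5.31 times as high in the KO-labelled library.

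**Figure D1:**
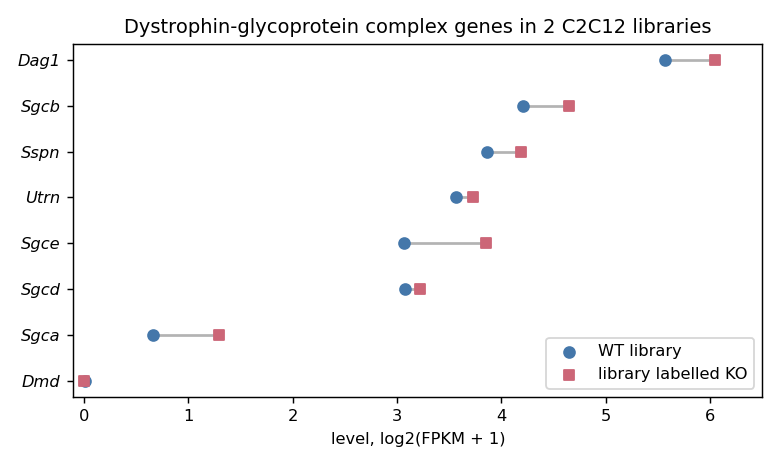
Level of each of the 8 genes as log2(FPKM + 1), with a circle for the WT library and a square for the KO-labelled library, 1 library each. Dag1 is highest, Dmd sits at the left edge in both, and for each of the other 7 genes the square lies to the right of the circle.

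The sarcoglycans are small transmembrane proteins that assemble as a group. All of those on the list lie on minus strands, Sgca on chromosome 11 from 94853605 to 94867273, Sgcb on chromosome 5 from 73790086 to 73805133, Sgcd on chromosome 11 from 46787080 to 47879796 and Sgce on chromosome 6 from 4672057 to 4747207. Sgcb, a subunit shared by muscle and other cells, was the most abundant, at 17.5 FPKM in WT and 24.1 FPKM in the KO-labelled library (log2 fold change 0.44). Sgcd, another shared subunit, had 7.43 and 8.35 FPKM (log2 fold change 0.15), the smallest difference among the members past the filter. These 2 subunits kept their order in both libraries.

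Sgce had 7.40 FPKM in WT and 13.4 FPKM in the KO-labelled library. Its log2 fold change of 0.78 was the largest of the members on this scale, and 9.74% of all genes had a larger one in either direction. Sgce was nearly level with Sgcd in the WT library, at 7.40 against 7.43 FPKM, and above it in the KO-labelled library.

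Sgca, the striated-muscle counterpart of Sgce, was low in both libraries, at 0.584 FPKM in WT and 1.45 FPKM in the KO-labelled library. Its values rest on roughly 24 and 54 fragments over the 1497 bases of Sgca-201, whereas those of the other members past the filter rest on at least 332, each over its canonical transcript. The plain ratio of the values was 2.49, and the log2 fold change was 0.63 with 1 FPKM added to each value and 1.18 with 0.1 FPKM added. Sgca passed the filter with a mean of 1.02 FPKM, through the KO-labelled library alone. Whether it counts as past 2-fold therefore rests on this added value.

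Sgcz, the ζ subunit and no member of the list, was listed at 0 in both libraries. The levels of Sgca, Sgcb, Sgcd, Sgce and Sgcz were summed and the share of each was taken. Of the summed level of 32.9 FPKM in the WT library, Sgcb made up 53.1%, Sgcd 22.6%, Sgce 22.5% and Sgca 1.77%. Of the 47.3 FPKM in the KO-labelled library, the shares were 50.9% for Sgcb, 17.6% for Sgcd, 28.4% for Sgce and 3.07% for Sgca. Sgce exceeded Sgca 12.7-fold in the WT library and 9.24-fold in the KO-labelled library. In both libraries the summed RNA of these subunits was thus made up chiefly of the β, δ and ε subunits.

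**Figure D2:**
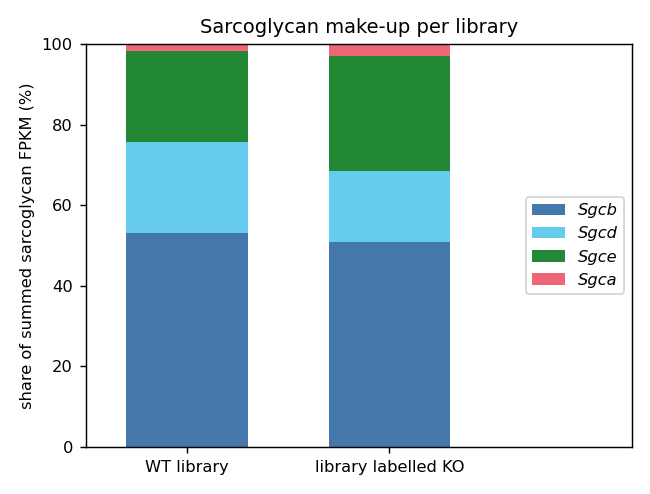
Share of Sgca, Sgcb, Sgcd and Sgce in their summed FPKM, in percent, as 1 stacked bar per library. Sgcb, Sgcd and Sgce fill nearly the whole of both bars, and the Sgce part is larger in the KO-labelled library (28.4% against 22.5%).

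Sspn encodes sarcospan, a membrane protein of the tetraspanin type that binds the sarcoglycans, on the plus strand of chromosome 6 from 145877367 to 145910950. It had 13.6 FPKM in WT and 17.3 FPKM in the KO-labelled library (log2 fold change 0.33). Its level ranked below those of Dag1 and Sgcb and above those of the other members in both libraries.

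Read together, 7 of the 8 genes passed the filter and 0 of the 7 were past 2-fold, where 6.27% of the 10542 genes were, 2.84% higher and 3.43% lower in the KO-labelled library. The 7 include Sgca, which its higher library alone brought past the filter. All 7, and all 6 without Sgca, were higher in the KO-labelled library, a direction that 50.7% of all genes had. Of the 7, 5 lay above the upper quartile of all genes (log2 fold change 0.23), which by definition holds 25% of them and was taken as a mark after the values were seen. Without Sgca these were 4 of 6. The median log2 fold change was 0.44 over the 7 genes, 0.38 over the 6 without Sgca and 0.38 over all 8, against 0.0061 over all genes past the filter. Among the 8880 genes whose means lay in the range of these 7, from 1.02 to 55.7 FPKM, 50.3% were higher and the median was 0.0027. The summed level of the 8 genes was 104 FPKM in WT and 142 FPKM in the KO-labelled library, of which Dag1 is the largest part.

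**Figure D3:**
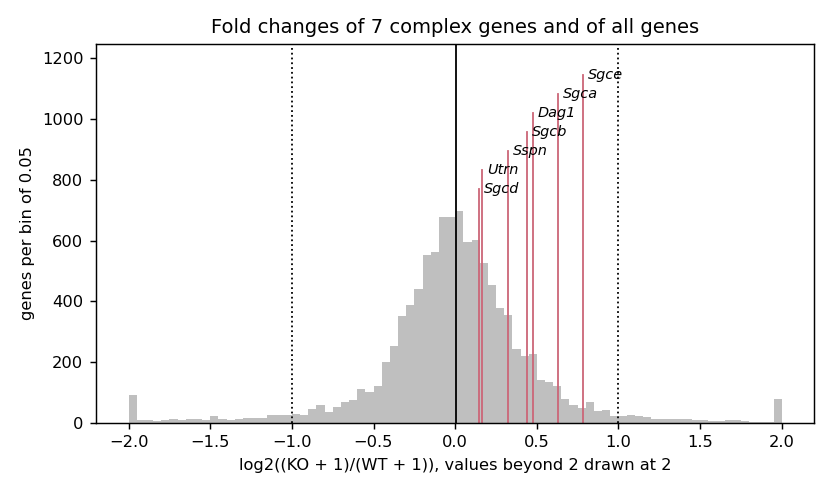
Histogram of log2((KO + 1)/(WT + 1)) for the 10542 genes past the filter in bins of 0.05, with values beyond 2 drawn at 2, the median as a solid line and a 2-fold change as dotted lines. Red lines mark the 7 complex genes past the filter, which lie between 0.15 and 0.78, all to the right of the median and inside the dotted lines.

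To show whether a difference was shared by the surrounding region, each gene was set beside its neighbours, the genes past the filter whose midpoints lie within 5 Mb on either side. The 7 genes lie on chromosomes 5, 6, 9, 10 and 11 of GRCm39. The median of the neighbours was -0.069 for Dag1, -0.073 for Sgca, 0.0020 for Sgcb, -0.023 for Sgcd and -0.061 for Sspn. It was 0.14 for both Sgce and Utrn. After subtraction of these medians the log2 fold change was 0.64 for Sgce, 0.55 for Dag1 and 0.70 for Sgca, and it was 0.025 for Utrn. All 7 differences were still above 0, and that of Utrn was nearly level with its surroundings.

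**Figure D4:**
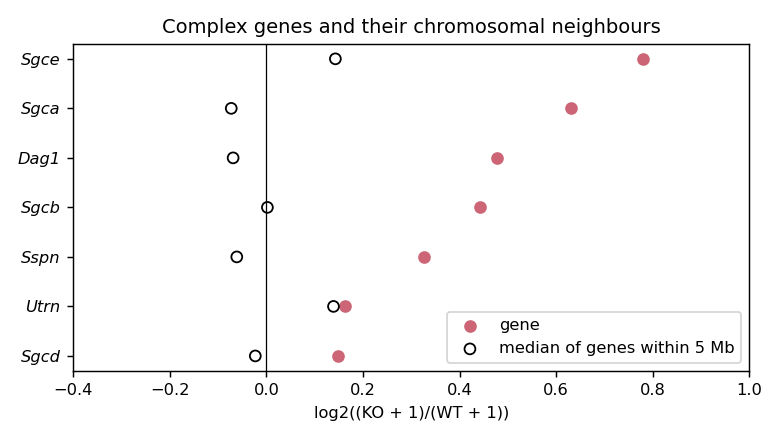
Log2((KO + 1)/(WT + 1)) of each of the 7 complex genes past the filter (filled) and the median of the genes within 5 Mb on either side (open). The filled point lies to the right of the open one for each gene, by 0.70 for Sgca and by 0.025 for Utrn.

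Other proteins bind to the complex from the cytoplasm, or serve beside it in the membrane. Of a list of 13 such partner genes, 8 passed the filter, and their median was -0.029. Past 2-fold, 1 was higher, against 2.84% of all genes, and 2 were lower, against 3.43%. The 2 lower genes, Drp2 and Nos1, passed the filter through the WT library alone. Dtna, which encodes α-dystrobrevin, a dystrophin-related scaffold, had 1.15 FPKM in WT and 6.89 FPKM in the KO-labelled library (log2 fold change 1.87). Its paralog Dtnb had 2.57 and 3.62 FPKM (log2 fold change 0.37). Drp2, a further dystrophin-related protein best known from Schwann cells, had 7.45 FPKM in WT and 0.833 FPKM in the KO-labelled library (log2 fold change -2.21). Nos1, the neuronal nitric oxide synthase that docks to the complex in muscle, had 3.58 and 0.362 FPKM (log2 fold change -1.75). The dystrophin-like genes of this list and of the complex thus had different patterns. Dmd was listed near or at 0. In the KO-labelled library Utrn was 1.13-fold higher, Drp2 was lower, and Dtna and, by less, Dtnb were higher.

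Of the syntrophins on the list, adaptor proteins that bind dystrophin and dystrobrevin, Sntb2 had 8.37 and 10.6 FPKM, Sntb1 had 0.007 FPKM in the WT library and was listed at 0 in the other, and Sntg1 and Sntg2 were listed at 0 in both. The laminin-binding integrin of muscle is a parallel link to the same ligand. Its α subunit Itga7 had 47.4 FPKM in WT and 28.4 FPKM in the KO-labelled library (log2 fold change -0.72). Its β subunit Itgb1, which pairs with many α subunits, had the highest mean of the list, at 153 and 247 FPKM, and Plec, a cytoskeletal linker, had 107 and 83.1 FPKM. For Plec the neighbours had a median of -0.39, close to its own log2 fold change of -0.36.

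Outside the cell, 5 of 8 ligand genes passed the filter, with a median of 0.59. Past 2-fold, 1 was higher and 1 lower, against 2.84% and 3.43% of all genes. The muscle laminin chain Lama2, the classic ligand of dystroglycan, was at 0.193 and 0.165 FPKM, and Lama1 was listed at 0 in WT and reached 0.214 FPKM in the KO-labelled library. Lama5 had 23.7 and 10.7 FPKM (log2 fold change -1.07). Slit2, a guidance protein that binds dystroglycan, had 2.57 and 15.0 FPKM (log2 fold change 2.17). Bgn, the proteoglycan biglycan, which binds sarcoglycans, was the highest of the list at 545 and 1004 FPKM (log2 fold change 0.88).

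The sugar chain of α-dystroglycan is built by a series of Golgi and endoplasmic reticulum enzymes. Of 11 such genes, 10 passed the filter and 8 of these were higher in the KO-labelled library, as were 50.7% of all genes. Of the 8, Pomgnt1 and B4gat1 were nearly level. Under either scaling of the libraries to each other 6 of the 10 were higher, as were 49.3% or 48.9% of all genes. Past 2-fold, 1 was higher, against 2.84% of all genes, and 0 were lower. The median was 0.16. Pomgnt2, which adds the second sugar of the chain, had 0.825 FPKM in WT and 3.72 FPKM in the KO-labelled library (log2 fold change 1.37), and passed the filter through the latter alone. The gene with the highest mean, B4gat1, which primes the laminin-binding repeat, had 28.7 FPKM in both libraries.

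**Figure D5:**
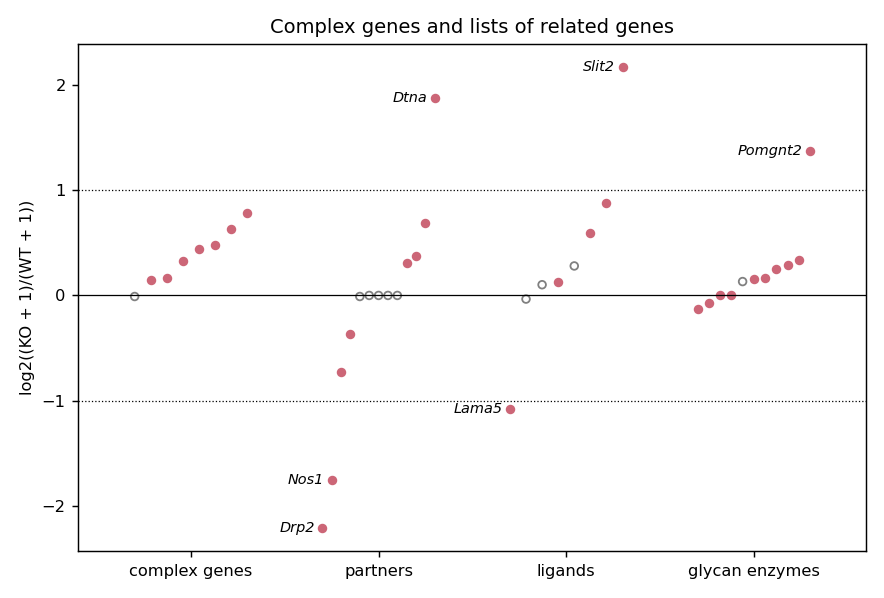
Log2((KO + 1)/(WT + 1)) of the 8 complex genes and of the genes in the partner, ligand and glycan enzyme lists, filled where the mean is at least 1 FPKM and open where it is lower, with genes past 2-fold named. None of the complex genes, 7 of them past the filter, lies beyond the dotted lines at 1 and -1. Of the genes past the filter, 3 of 8 partners, 2 of 5 ligands and 1 of 10 enzymes do, against 6.27% of all genes. Drp2 and Nos1 passed the filter through the WT library alone, and Pomgnt2 through the KO-labelled library alone.

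The levels of these genes stand beside differences in cell type markers between the libraries. Of 7 myoblast markers, 5 passed the filter, with 4 past 2-fold lower and 1, Myf5, past 2-fold higher, and their summed level was 199 FPKM in WT and 25.8 FPKM in the KO-labelled library. Myod1, which encodes the myogenic factor MyoD, had 59.97 FPKM in WT and was listed at 0 in the KO-labelled library, where a 0 can also be a failed estimate. Myf5 had 9.14 and 20.3 FPKM. Des, the muscle intermediate filament, had 97.6 and 3.84 FPKM. The other markers past 2-fold lower, Myod1 included, passed the filter through the WT library alone. Pax7 was listed at 0 in both. Of 11 markers of differentiated muscle, 10 were below 1 FPKM in both libraries. The remaining one, Acta1, had 1.84 FPKM in WT and 3.93 FPKM in the KO-labelled library (log2 fold change 0.79). Of 6 fibroblast markers 3 passed, 1 of them past 2-fold higher, with summed levels of 75.2 and 368 FPKM, mostly Col1a1 in the KO-labelled library, and Thy1 and Lum were listed at 0 in both. Of 4 smooth muscle markers 2 passed, Acta2 and Tagln, both past 2-fold higher, with summed levels of 233 and 598 FPKM, while Myh11 was at or below 0.020 FPKM. All 4 Schwann cell markers and all 3 endothelial markers were below 1 FPKM in both libraries, and of 2 immune markers Cd68 was at 2.85 and 1.06 FPKM and Ptprc was listed at 0. The part of these differences in the levels of the complex genes was not tested, and in bulk RNA fewer cells with a transcript and less of it per cell cannot be told apart.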

How the data were processed

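RNA-seq values of 2 mouse C2C12 libraries, 1 WT and 1 Gne KO, were analysed. Per the methods, the authors trimmed reads with TrimGalore, aligned them with STAR and quantified them with RSEM. The build is GRCm39 in the methods and GRCm38 in the submitters' processing notes. The labels and the methods name different library kits, both strand-specific. The authors deposited 1 value per gene symbol, taken as FPKM. The unit was inferred, depth is not given, and no counting interval is printed. Because the values were not counts, no count model was used. Of 21853 rows, 24 repeated an earlier symbol, and of such rows the higher one by mean entered.

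The members and the lists of related genes were chosen with earlier results of these data known. Some genes of the lists are not reported here and were left out of the counts, medians and sums of those lists. All 8 members are named. Of the partner, ligand and glycan enzyme lists, the genes past 2-fold with a mean of at least 1 FPKM and the gene with the highest mean are named. Of the cell type markers only some are named. Further genes were picked for naming once their values were known. Log2 fold changes used a pseudocount of 1. Positions and transcript lengths came from GENCODE vM39 on GRCm39. The value of 1 fragment was taken as the median product of value and length between 0.025 and 0.055, in 46 genes of the WT library and 53 of the KO-labelled library with a single transcript over 1500 bases. This range was set after the values were seen, and an effective length shorter than the transcript was not modelled. Promoter windows came from RefSeq on GRCm38.p6. The calling procedure was tested on simulated data, with planted changes well past 2-fold in genes well above the filter. That test does not cover changes as small as those of the members or genes as low as Sgca. Python 3.11.15, numpy 2.4.6, pandas 2.3.3 and matplotlib 3.10.9 were used. Alternatives were other scalings, pseudocounts of 0.1 and 5, a stricter filter of 5 FPKM or none, summed repeated symbols and subtraction of neighbouring genes.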

Additional observations from a re-analysis of the deposited data

How the results depend on the processing

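With a single library per line, none could be left out. No paired analysis was possible because neither line has a second library. With a pseudocount of 0.1, 1 member, Sgca, was past 2-fold, against 0. Among all genes past the filter, 410 were then past 2-fold higher and 471 lower, in both directions more than with a pseudocount of 1. With a pseudocount of 5 the median of the members was 0.26, against 0.44, and 102 genes were past 2-fold higher and 176 lower. With the filter at 5 FPKM, which leaves fewer genes, these counts were 145 and 221. Scaling by the median of ratios or to equal totals used factors of 1.0087 and 1.01. Neither a pseudocount nor a filter can turn the direction of a gene. Scaling factors this close to 1 could not turn a member either, since the smallest log2 fold change among them was 0.15. Subtraction of neighbours could, and after it the log2 fold changes of the 7 members past the filter were above 0. The 7 include Sgca, which its higher library alone brought past the filter. Leaving out Sgca, an alternative chosen after seeing the data, gave a median of 0.38 and 0 members past 2-fold. Under either scaling, also added after seeing the data for that list, 6 of 10 glycan enzymes were higher, against 8. Of all genes, 49.3% were higher when scaled by the median of ratios and 48.9% when scaled to equal totals. Of all values of single members, 3 moved by over 1.5 times: Sgca with either pseudocount, at 1.18 and 0.21, and Utrn after subtraction of its neighbours, at 0.025. Sgcd and Utrn, at 0.15 and 0.16, lie below the upper quartile of all genes, 0.23, and without replicates the error of these and the other differences is unknown.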

Other observations

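Next to 2 of the sarcoglycan genes lie genes with far larger differences between the libraries, which were looked up after the values were seen. Col1a1, the collagen I chain, ends 9737 bases from the end of Sgca on chromosome 11 of GRCm39, on the opposite strand, and had 9.66 FPKM in WT and 273 FPKM in the KO-labelled library (log2 fold change 4.69). On the other side of Sgca, Ppp1r9b had 27.2 and 30.7 FPKM.

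Sgce starts 99 bases from Peg10 on chromosome 6, on the opposite strand. Both belong to an imprinted cluster in which the paternal copies are expressed. Peg10 had 19.3 FPKM in WT and 4.70 FPKM in the KO-labelled library (log2 fold change -1.83), the opposite direction to Sgce at 0.78. Casd1, on the other side of Sgce at a distance of 28701 bases, encodes the enzyme that O-acetylates sialic acid. It was listed at 0 in WT and reached 13.3 FPKM in the KO-labelled library; a value of 0 in such a file can also be a failed estimate.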
